A study of Mus musculus with 37 samples.

Results

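The fibroblast growth factor (Fgf) genes Fgf7, Fgf8, Fgf9, Fgf10 and Fgf20 and the receptor genes Fgfr1, Fgfr2, Fgfr3, Fgfr4 and Fgfrl1 were followed across 9 components of the developing mouse kidney. They were taken by gene symbol from the array annotation, which gave 10 of the 18193 genes and 22 of the 45101 probe sets on the array. The renal vesicle (first epithelial stage of the nephron) was sampled at E12.5 (5 arrays), and the ureteric bud (the branching epithelial outgrowth, 4 arrays) and the metanephric mesenchyme around it (8 arrays) at E11.5. At E15.5 there were the renal corpuscle (capillary loop and maturing stages, 4 arrays), early proximal tubule (2), S-shaped body (4), ureteric tip (3), medullary collecting duct (3) and medullary interstitium (4). All samples were wild-type embryos of the outbred CD-1 strain, of unknown sex. The labels describe each sample as a pool of about 50 sections from 5 kidneys, with RNA amplified in 2 rounds, and mostly name laser capture. The titles differ from this for E11.5 tissue: of the mesenchyme arrays 3 are titled as laser capture, 4 as dissected or collagenase-treated and 1 with no method, and all 4 bud arrays as dissected or collagenase-treated. Nothing ties pools to litters, so p-values measure the spread between pools, which may be partly technical, and would be too small if pools shared animals.

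Fgf ligands are secreted proteins that bind receptor tyrosine kinases together with heparan sulfate on the cell surface, which switches on Ras and MAP kinase signalling. In the mouse kidney, Fgf7 and Fgf10 come from mesenchymal or stromal cells and act on the ureteric epithelium through an isoform of Fgfr2, Fgf9 and Fgf20 maintain nephron progenitors, and Fgf8 is needed in newly induced nephrons. Fgfr1 to Fgfr4 carry a tyrosine kinase, whereas Fgfrl1 binds ligand without one and is itself required for nephron formation in mice.

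The stretches just upstream of the annotated start of 3 receptor genes are printed because Fgfr4 and Fgfr3 had the most calls of the 10 genes, and Fgfr2 had a call in the collecting duct, in the measurements that follow. They are the 250 bases before the start from RefSeq on build GRCm38.p6, at chr13:55152568-55152817 (plus strand) for Fgfr4, chr5:33721474-33721723 (plus strand, the first of 2 annotated starts) for Fgfr3 and chr7:130266809-130267058 (minus strand) for Fgfr2. Capitals mark GGGCGG (the GC box) and CCAAT on either strand.
Fgfr4: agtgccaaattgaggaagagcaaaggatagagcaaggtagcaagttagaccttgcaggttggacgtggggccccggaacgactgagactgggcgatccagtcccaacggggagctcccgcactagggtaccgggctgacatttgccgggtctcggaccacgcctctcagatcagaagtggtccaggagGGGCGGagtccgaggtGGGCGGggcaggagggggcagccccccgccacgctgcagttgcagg
Fgfr3: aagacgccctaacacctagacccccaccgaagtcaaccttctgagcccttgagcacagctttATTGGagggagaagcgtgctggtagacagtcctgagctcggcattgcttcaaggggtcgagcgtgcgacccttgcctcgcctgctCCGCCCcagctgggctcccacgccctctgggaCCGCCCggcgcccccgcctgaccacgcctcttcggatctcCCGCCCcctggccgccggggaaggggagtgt
Fgfr2: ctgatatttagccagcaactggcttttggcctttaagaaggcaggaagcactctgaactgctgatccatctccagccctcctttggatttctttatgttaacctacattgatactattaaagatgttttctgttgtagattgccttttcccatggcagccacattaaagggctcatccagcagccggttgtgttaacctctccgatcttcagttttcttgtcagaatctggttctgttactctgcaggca
The Fgfr4 stretch held 2 GC boxes and 15 CpG at 64% GC. The Fgfr3 stretch held 3 GC boxes, 1 CCAAT and 19 CpG at 66.8% GC. The Fgfr2 stretch held neither motif and 2 CpG at 44% GC. TATAAA was absent from the 3 stretches. Of 32841 windows of this length, 32.7% held GGGCGG, 33.9% CCAAT and 12.4% TATAAA, and the median GC content was 52.4%. RefSeq windows were matched for 7 of the 10 genes. The matches are a description of letters and were not linked to expression.

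Values below are log2 signal after quantile normalization, and each gene is represented by its probe set with the highest mean. A level on this scale can be set against other arrays for the same gene only, since probe sets differ in brightness. In pooled tissue, fewer cells of a type and less RNA per cell cannot be told apart. The median deposited signal of an array was 127 to 334. For the components with a marker list of their own that list was highest there, apart from the ureteric epithelium list, which ranked first in the ureteric tip (13.82) and second in the bud (13.65). Single arrays went against their labels. S-shaped body replicate 3 had a podocyte list level of 14.93, within the 14.15 to 15.28 of corpuscle replicates 1 to 3, and a renal vesicle list level of 10.05, below the 13.31 to 13.93 of the other S-shaped bodies. Renal corpuscle replicate 4 showed the opposite, at 10.7 for podocyte and 13.67 for vesicle genes. S-shaped body replicate 3 was also high for other lists. Its proximal tubule list level was 12.64, where the other S-shaped bodies had 8.84 to 9.64 and the corpuscles 8.77 to 10.07. Its interstitium list level was 14.22, and that of the other S-shaped bodies 11.41 to 11.58. Medullary interstitium replicate 1 had a ureteric epithelium list level of 12.54, and the other interstitium arrays 8.87 to 11.07.

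All 10 genes passed the filter on low values, and 21 of their 22 probe sets did; the exception, an Fgfr4 probe set (1427845_at), was above the pooled median of 7.89 in 0 of 37 arrays. Most ligand signals lay below this median, and the median over the arrays was 5.87 for Fgf8 and 5.98 for Fgf20. Fgf20 exceeded the pooled median in 3 arrays, Fgf7 in 6, Fgf8 in 10, Fgf10 in 16 and Fgf9 in 30. Fgfr1, Fgfr2 and Fgfrl1 exceeded it in all 37 arrays, Fgfr4 in 36 and Fgfr3 in 34. In limma's F-test over the 9 components, 7 of the 10 genes varied, where 49.9% of all 15709 genes did. These were all 5 receptor genes with Fgf8 (adjusted p = 0.0177) and Fgf9 (adjusted p = 0.0153). Fgf7 (adjusted p = 0.346), Fgf10 (0.843) and Fgf20 (0.15) did not pass.

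Over 14 comparisons 13 changes were called, meaning an adjusted p under 0.05 and a log2 difference of at least 1 in size. They make up 9.29% of the 140 tests of these genes, where 5.95% of the tests of all genes were called. Of the 13 calls, 12 were in receptor genes and 1 was in a ligand gene. Of the 10 genes 6 were called at least once, as were 42.5% of all genes. Fgfr3 and Fgfr4 had 4 calls each, Fgfr1 had 2, and Fgfr2, Fgfrl1 and Fgf8 had 1 each. The comparisons share arrays (mesenchyme, for example, is the reference in 3 of them), so the calls of a gene are not independent of each other. Some pairs also differ in embryonic day: vesicle or interstitium against mesenchyme, S-shaped body against vesicle, and tip against bud. In these pairs stage and component cannot be told apart, for any gene named here or in the lists below.

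**Figure D1:**
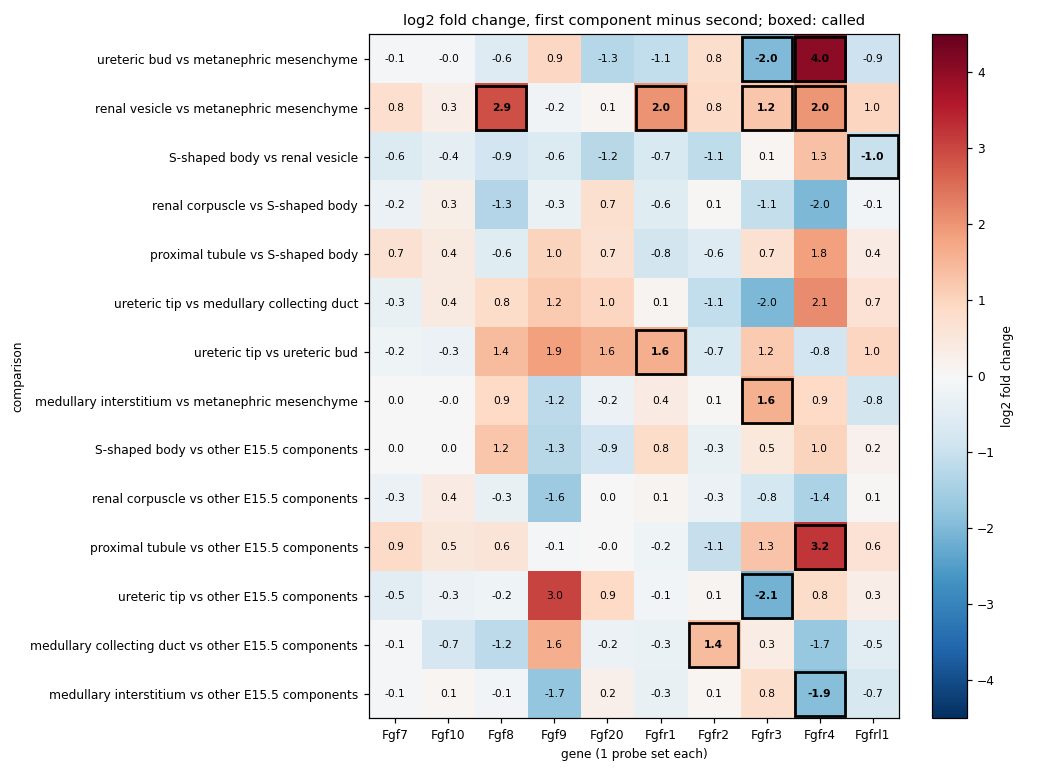
Log2 fold change (colour and printed number, first-named component minus the second) of each gene (columns) in each of the 14 comparisons (rows), with boxes around the 13 calls. Fgfr4 had the largest values, 4.01 in ureteric bud against mesenchyme and 3.21 in proximal tubule against the other E15.5 components.

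Among the ligand genes, Fgf8 had its highest mean in the renal vesicle. It measured 9.84, 7.69, 8.52, 9.34 and 8.75 in the 5 vesicle arrays, and 5.26 at the lowest, 5.65 at the median and 6.92 at the highest in the 8 mesenchyme arrays. The groups did not overlap. Fgf8 rose in renal vesicle against mesenchyme by 2.91 (SE 0.74, limma adjusted p = 0.00646), 7.51-fold. With mesenchyme titled as laser capture only, the difference was 2.65 with an adjusted p of 0.16, the highest over 27 alternatives (lowest 0.000229).

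At E15.5 the Fgf8 signal was split within components. The S-shaped body arrays read 8.06, 9.28, 5.42 and 9.04, the low one being replicate 3 with its high podocyte, proximal tubule and interstitium list levels. The renal corpuscle arrays read 5.78, 5.41, 5.31 and 10.1, the high one being replicate 4 with its vesicle-like marker levels. With all arrays, renal corpuscle minus S-shaped body was -1.31 (adjusted p = 0.566) and was not called. Without these 2 arrays it was -3.30 (adjusted p = 0.0172, the lowest over its alternatives, the highest being 0.967), and S-shaped body minus the other E15.5 components was 2.31 (adjusted p = 0.039, the lowest over its alternatives, the highest being 1), against 1.24 with them. The arrays were chosen after their marker levels were seen. The ureteric tip arrays read 5.34, 5.28 and 9.65, the collecting duct arrays 7.22, 5.33 and 5.28, and the interstitium arrays 8.84, 7.49, 5.54 and 5.34, with a single high array in the tip. The bud had the lowest mean, 5.34 ± 0.07 (SD, n = 4), and neighbouring components in the order of means overlapped throughout.

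Fgf9 had its highest levels in the ureteric lineage. It read 11.01, 12.52 and 12.44 in the ureteric tip, 10.88, 10.93 and 10.65 in the medullary collecting duct and 10.29, 9.84, 10.27 and 10.17 in the ureteric bud. These 3 components took the first 3 places without overlap between neighbours. Their arrays also had ureteric epithelium list levels of 13.43 to 14.16 (tip), 10.86 to 11.8 (duct) and 13.42 to 14.01 (bud).

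Elsewhere Fgf9 scattered widely. The mesenchyme arrays read 8.49 at the lowest, 8.95 at the median and 11.26 at the highest. The 2 proximal tubule arrays read 7.64 and 11.18, the corpuscle arrays 5.43, 9.11, 7.23 and 10.67, the S-shaped body arrays 9.2, 9.11, 6.66 and 8.68, and the vesicle arrays 7.91, 10.1, 8.34, 11.21 and 7.67. The interstitium arrays read 11, 8.27, 6.11 and 6.7, the highest being replicate 1, which also had the highest ureteric epithelium list level of that component. Proximal tubule replicate 2 (Fgf9 11.18, list 10.9) and vesicle replicate 2 (10.1, list 11.59) likewise had high list levels. Other arrays with high Fgf9 had low list levels: vesicle replicate 4 (11.21, list 8.18), corpuscle replicate 4 (10.67, list 7.01) and mesenchyme replicate 8 (11.26, list 8.14). How far ureteric cells contribute was not tested. In the ureteric tip against the other E15.5 components Fgf9 was 3.03 higher (SE 0.83) with an adjusted p of 0.0515, and so was not called. It passed under 6 of 14 processing alternatives and in 5 of 20 fits that left out 1 array each; over all of them the adjusted p ran from 8.9e-06 to 0.376. In the interstitium against the others the difference was -1.73 (adjusted p = 0.168), and without replicate 1 it was -2.72 (adjusted p = 0.0219, the lowest over its alternatives, the highest being 0.674). The second Fgf9 probe set (1420795_at) gave 0.95 (SE 0.42) for the tip, and did not vary across the components (F-test adjusted p = 0.434).

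Fgf20, Fgf7 and Fgf10 showed no called difference. Fgf20 read 7.42, 7.14 and 6.98 in the ureteric tip and 5.48, 5.78, 5.67 and 5.34 in the bud, with no overlap; the difference was 1.61 (SE 0.62, adjusted p = 0.137). All 7 of these readings lay below the pooled median. Fgf7 had component means of 6.88 to 7.98 and Fgf10 of 6.97 to 8.02, and for both genes every pair of neighbours in the order of components overlapped. The second probe set of Fgf7 (1438405_at) followed a different pattern. It averaged 8.57 ± 0.66 (SD, n = 4) in the medullary interstitium, where the probe set with the higher mean read 7.35, 7, 6.97 and 7.43. Against the other E15.5 components it was 1.88 higher (SE 0.49, adjusted p = 0.0188 over all probe sets, 4.07% of which were called). Across the 37 arrays the 2 Fgf7 probe sets correlated at r = -0.12.

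**Figure D2:**
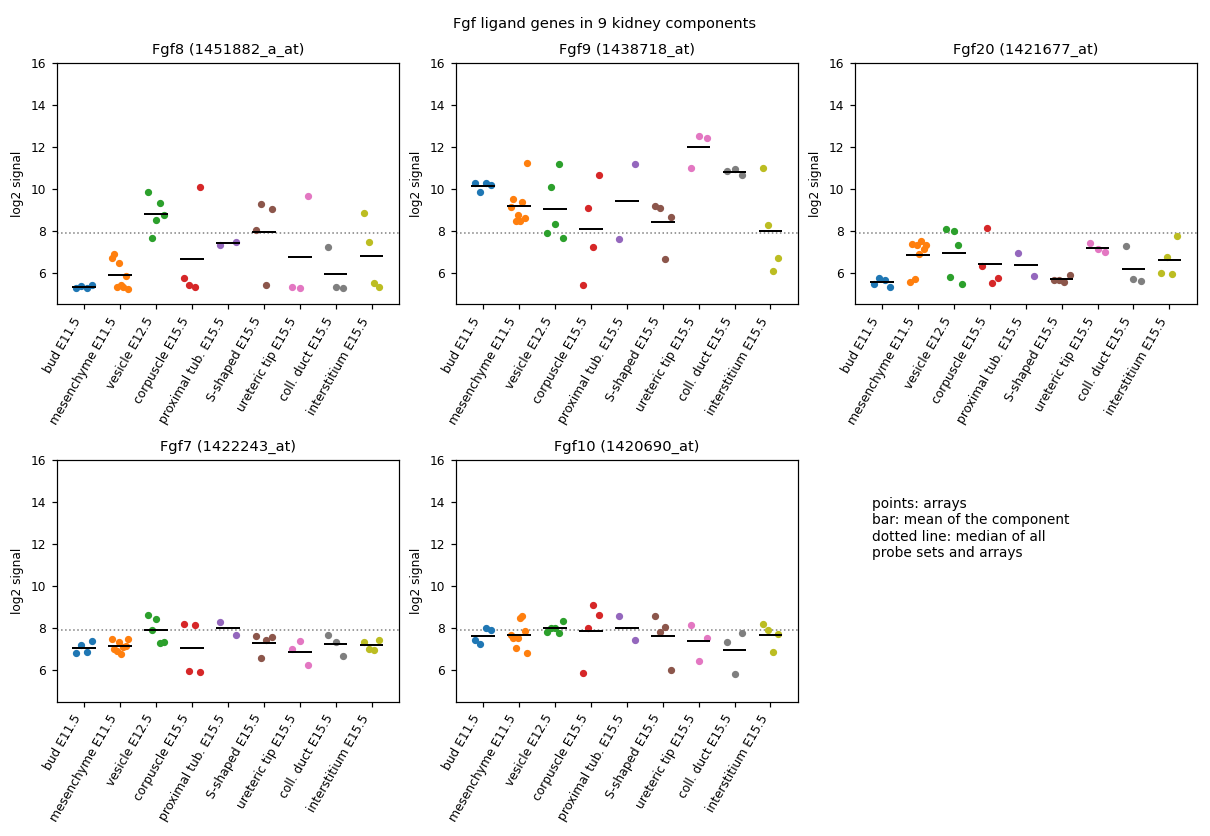
Log2 signal of the 5 ligand genes in each array (points) with component means (bars), by component; the dotted line is the pooled median of 7.89. Fgf8 stands above this line in all but 1 of the renal vesicle arrays, and Fgf20 is below it in all but 3 arrays. Fgf9 is above it in 30 of 37 arrays, with its highest means in the ureteric tip, collecting duct and bud.

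Fgfr4 had the widest range of the receptor genes. It read 12.72, 12.49, 11.88 and 12.57 in the ureteric bud, and 7.47 at the lowest, 8.33 at the median and 9.25 at the highest in the mesenchyme. The bud arrays all lay above the mesenchyme arrays. Fgfr4 rose in ureteric bud against mesenchyme by 4.01 (SE 0.49, adjusted p = 2.85e-07), 16.1-fold. Of the 10 genes 2 were called in this comparison, where 8.15% of all genes were. Other Fgfr4 probe sets were also called higher, 1427776_a_at by 2.52 (adjusted p = 7.28e-05 over all probe sets) and 1427777_x_at by 1.92 (0.00781), where 4.89% of all probe sets were called. Probe set 1427846_x_at averaged 8.88 in the bud and 8.05 in the mesenchyme, and did not vary across the components (limma F-test adjusted p = 0.235).

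In the nephron, Fgfr4 measured 13.01 and 14.09 in the proximal tubule and from 10.86 to 12.28 (11.71 ± 0.67, SD, n = 4) in the S-shaped body. It read 11.35, 9.4, 8.56, 11.19 and 11.47 in the vesicle and 10.43, 9.87, 10.31 and 8.2 in the corpuscle. Tubule arrays all lay above those of the S-shaped body, which lay above all corpuscle arrays and overlapped the vesicle, where 2 of the 5 arrays were low. These 2 arrays, vesicle replicates 2 and 3, had interstitium list levels of 11.62 and 13.05, and the other vesicle arrays 9.93 to 10.25. The part of other cells in these readings was not tested. Fgfr4 rose in renal vesicle against mesenchyme by 1.99 (SE 0.45, adjusted p = 0.00278), but its 3 other tested probe sets gave -0.01 to 0.29 and were not called. Fgfr4 rose in proximal tubule against the other E15.5 components by 3.21 (SE 0.59, adjusted p = 0.000175), where 15.2% of all genes were called and Fgfr4 was the 1 called member. Probe set 1427777_x_at also rose, by 1.71 (adjusted p = 0.038 over all probe sets, 14.4% of which were called). Probe set 1427846_x_at averaged 9.17 in the tubule, and 7.95 (duct) to 8.55 (S-shaped body) in the other E15.5 components.

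Among the ureteric components at E15.5 Fgfr4 read 10.36, 11.89 and 12.45 in the tip and 9.35, 9.74 and 9.25 in the collecting duct. The tip was above the duct in every array, by 2.12 (SE 0.65), but the adjusted p was 0.251. The interstitium arrays read 9.48, 9.19, 9.76 and 8.73. Fgfr4 fell in the interstitium against the other E15.5 components by 1.91 (SE 0.45, adjusted p = 0.00593; 1 member called, 6.11% of all genes); without interstitium replicate 4 the difference was -1.72 (adjusted p = 0.0506). Probe set 1427846_x_at averaged 8.41 in the interstitium, between the duct (7.95) and the tubule (9.17). The dim 1427776_a_at was lowest there (5.57), and 1427777_x_at averaged 6.49 there and 6.28 in the duct. In the order of means of the probe set used for Fgfr4, the proximal tubule (13.55) came before the bud (12.41) without overlap, and all later neighbours overlapped. The interstitium mean (9.29) lay near those of the duct (9.44) and corpuscle (9.7). The higher means among the other E15.5 components were those of the tubule, S-shaped body (11.71) and tip (11.56).

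The Fgfr4 calls were lost under few settings. With a fixed term for the titles' date code, which leaves 8 residual degrees of freedom, the adjusted p was 0.448 for bud against mesenchyme, at a difference of 3.75, and 0.0581 for proximal tubule against the others, at 3.22, and the interstitium difference was -1.74 (0.233). With mesenchyme titled as laser capture only, vesicle minus mesenchyme was 1.76 (0.109). The lowest adjusted p over the alternatives was 6.81e-15 for the bud, 3.91e-05 for the tubule, 0.00208 for the interstitium and 0.0003 for the vesicle, so each p just given was the highest.

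Fgfr3 was lowest in the ureteric bud and the ureteric tip. It read 8.19, 7.83, 6.22 and 8.27 in the ureteric bud, and 7.21, 9.94 and 10.62 as lowest, median and highest in the mesenchyme. Mesenchyme replicate 8 was the single low array; the other 7 lay between 9.31 and 10.62, above every bud array. Fgfr3 fell in ureteric bud against mesenchyme by 2.00 (SE 0.46, adjusted p = 0.00249). Against mesenchyme titled as dissected or collagenase-treated only, the difference was -1.64 (adjusted p = 0.0592), and with the date code fixed -3.42 (0.388); the adjusted p over all its alternatives was 7.97e-08 to 0.388.

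At E15.5 Fgfr3 read 9.59, 8.47 and 8.34 in the ureteric tip, and 11.39, 10.69 and 10.39 in the collecting duct, with no overlap. The tip minus duct difference was -2.02 (SE 0.61, adjusted p = 0.228). Against the mean of all other E15.5 components, Fgfr3 fell in the tip by 2.11 (SE 0.47, adjusted p = 0.0142; 1 member called, 1.6% of all genes). Without tip replicate 2 the difference was -1.95 (0.185), and without replicate 3 -1.89 (0.104); with the date code fixed it was -2.02 (0.166), and the lowest adjusted p over its alternatives was 1.34e-05.

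Other components had higher Fgfr3. The proximal tubule averaged 11.64 ± 0.21 (SD, n = 2), the interstitium 11.04, 11, 11.76 and 11.06, the S-shaped body 11.63, 10.9, 10.72 and 10.64, and the corpuscle 9.2, 9.76, 11.07 and 9.6. Fgfr3 rose in medullary interstitium (E15.5) against mesenchyme (E11.5) by 1.59 (SE 0.46, limma adjusted p = 0.017), where stage and component cannot be told apart. Fgfr3 was the 1 member called in this comparison, where 4.67% of all genes were called higher and 6.82% lower. This call was lost without interstitium replicate 3 (1.41, adjusted p = 0.0809), under median scaling (1.17, 0.0679), against mesenchyme titled as laser capture (1, 0.272) and with the date code fixed (0.99, 0.755); the lowest adjusted p over its alternatives was 0.00874.

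In the vesicle Fgfr3 read 11.26, 10.58, 10.87, 10.65 and 11, and rose against mesenchyme by 1.24 (SE 0.42, adjusted p = 0.0438). The call held under 10 of 27 alternatives, with adjusted p from 0.0296 to 0.505. Without mesenchyme replicate 8 the difference was 0.9 (0.0856), and the call was also lost without mesenchyme replicate 2 or 6 or any 1 vesicle array, at differences of 1.15 to 1.32. Against mesenchyme titled as laser capture only it was lost as well. The second Fgfr3 probe set (1425796_a_at) was above the pooled median in 3 arrays and did not vary (F-test adjusted p = 0.259). In the order of Fgfr3 means only the tip and the bud, in the last 2 places, did not overlap as neighbours.

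Fgfr1 was highest in the renal vesicle. It read 13.53, 12.31, 13.04, 13.06 and 13.04 there, and 9.82, 10.92 and 12.19 as lowest, median and highest in the mesenchyme. Every vesicle array was above every mesenchyme array. Fgfr1 rose by 2.01 (SE 0.37, adjusted p = 0.000277). In this comparison 4 of the 10 genes were called, all higher, where 11.9% of all genes were called and 3.87% were called higher. The median over the 10 genes was 0.91, and over all genes -0.06. Against the 3 mesenchyme arrays titled as laser capture only, none of the 10 genes was called. The vesicle is of E12.5 and the mesenchyme of E11.5, so stage and component cannot be told apart here. The macrophage list ranged from 7.57 to 11.1 in the vesicle arrays and from 9.42 to 11.68 in the mesenchyme arrays, and the erythroid list from 7.45 to 10.76 in the vesicle arrays and from 9.95 to 11.64 in the mesenchyme arrays. In the bud arrays the macrophage list ranged from 6.98 to 7.68. Their part in the differences was not tested.

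The Fgfr1 result differed between probe sets and between mesenchyme arrays with different titles. Probe set 1436551_at, also above the pooled median in all 37 arrays, gave 0.31 (SE 0.46) for vesicle against mesenchyme, and 1425911_a_at gave 0.28; neither varied over components (F-test adjusted p = 0.364 and 0.262). Mesenchyme arrays titled as laser capture read 11.15 to 12.19, and those titled as dissected or collagenase-treated 9.82 to 10.68. The laser capture arrays also had ureteric epithelium list levels of 9.43 to 11.22, and those titled as dissected or collagenase-treated 8 to 8.14. The mesenchyme array with no method in its title had a list level of 11.03 and read 11.62 for Fgfr1. Ureteric bud arrays of the same day read 9.28 to 10.42 for Fgfr1. The part of the method or of ureteric cells was not tested. Against the 3 laser capture arrays alone, in place of all 8, the difference was 1.38 (adjusted p = 0.0845), and without probe sets that may match several transcripts (suffix _x or _s) it was 0.31 (0.702), the highest over its alternatives (lowest 3.82e-05).

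Fgfr1 was lowest in the ureteric bud, at 10.42, 9.85, 9.28 and 9.97, and read 11.42, 11.07 and 12.04 in the ureteric tip. It rose in the tip against the bud by 1.63 (SE 0.49, adjusted p = 0.0472; 1 member called, 4.25% of all genes). Leaving out any 1 of the 7 arrays ended the call, at differences of 1.37 (without tip replicate 3) to 1.85 (without tip replicate 2) and adjusted p of 0.0548 to 0.206. Under median scaling, where the median of all genes was -0.88 between these components against -0.22 here, Fgfr1 was 0.81 higher (adjusted p = 0.259; over all alternatives 0.000525 to 0.612). Probe set 1436551_at averaged 10.73 in the tip and 10.08 in the bud. The interstitium list ranged from 11.17 to 13.49 in the tip arrays and from 7.76 to 9.21 in the bud arrays, and its part was not tested. In tip against bud, component, stage (E15.5 against E11.5) and the method named in the bud titles cannot be told apart, for any gene. For Fgfr1 and for Fgfr2 all neighbours in the order of components overlapped.

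Fgfr2 had its highest mean in the medullary collecting duct. It read 13.33, 15.32 and 14.76 there, against 12.18 to 14.07 in all other E15.5 arrays. Collecting duct replicate 1 lay within that range. Fgfr2 rose in the collecting duct against the other E15.5 components by 1.44 (SE 0.35, adjusted p = 0.0184; 1 member called, 1.9% of all genes). Probe set 1420847_a_at also rose there, by 2.04 (SE 0.53, adjusted p = 0.0387 over all probe sets, 1.31% of which were called). Without collecting duct replicate 2 the difference was 1.01 (0.507) and without replicate 3 1.29 (0.191). It was 0.97 (0.181) under median scaling and 1.44 (0.0587) with only these samples fitted, and the lowest adjusted p over its alternatives was 0.000145.

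Fgfr2 in the vesicle read 14.52, 13.61, 13.58, 14.78 and 14.19, and in the S-shaped body 12.85, 13.1, 13.46 and 12.55. The groups did not overlap, but the difference of -1.15 for S-shaped body minus vesicle was not called (SE 0.37, adjusted p = 0.0616). The 2 proximal tubule arrays, at 12.61 and 12.18, had the lowest mean. Probe set 1443211_at fell in the proximal tubule against the other E15.5 components by 1.89 (limma adjusted p = 0.0477 over all probe sets, 14.4% of which were called). It was dim, at 5.52 and 5.54 in the tubule, and exceeded the pooled median in 6 of 37 arrays. The brighter 1433489_s_at was 1.05 lower in the tubule with an adjusted p of 0.0764.

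Fgfrl1, the receptor gene without a kinase, was highest in the renal vesicle and lowest in the ureteric bud. It read 14.76, 13.99, 14.67, 14.57 and 14.55 in the vesicle, and 13.23, 13.57 and 13.94 as lowest, median and highest in the mesenchyme, with no overlap. The difference of 0.96 (SE 0.26, adjusted p = 0.0119) was just under the size needed for a call, and probe set 1451912_a_at was called at 1.08 (adjusted p = 0.0432 over all probe sets, 9.86% of which were called). The bud read 12.79, 12.43, 12.81 and 12.47, below every mesenchyme array, at a difference of -0.93 (SE 0.28, adjusted p = 0.0308) that was also under that size.

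The S-shaped body read 14.04, 14.05, 12.04 and 13.86 for Fgfrl1, the low array again being replicate 3. Fgfrl1 fell in S-shaped body against vesicle by 1.01 (SE 0.31, adjusted p = 0.048; 1 member called, 4.99% of all genes). Without S-shaped body replicate 3 the difference was -0.52 (adjusted p = 0.36, the highest over its alternatives; lowest 0.0105), and without vesicle replicate 1, 3, 4 or 5 it was -0.95 to -1 and not called. Renal corpuscle replicate 4 (14.32) stood above the other corpuscles (12.94, 13.37 and 12.91). In the order of means only the vesicle and the next component, the proximal tubule (13.85 and 13.89), did not overlap. Probe set 1451912_a_at had its highest mean in the corpuscle (12.25 ± 1.16, SD, n = 4), and it rose in ureteric tip against bud by 1.82 (SE 0.48, adjusted p = 0.0136 over all probe sets, 6.9% of which were called), where 1447878_s_at was 0.97 higher and not called (0.111).

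**Figure D3:**
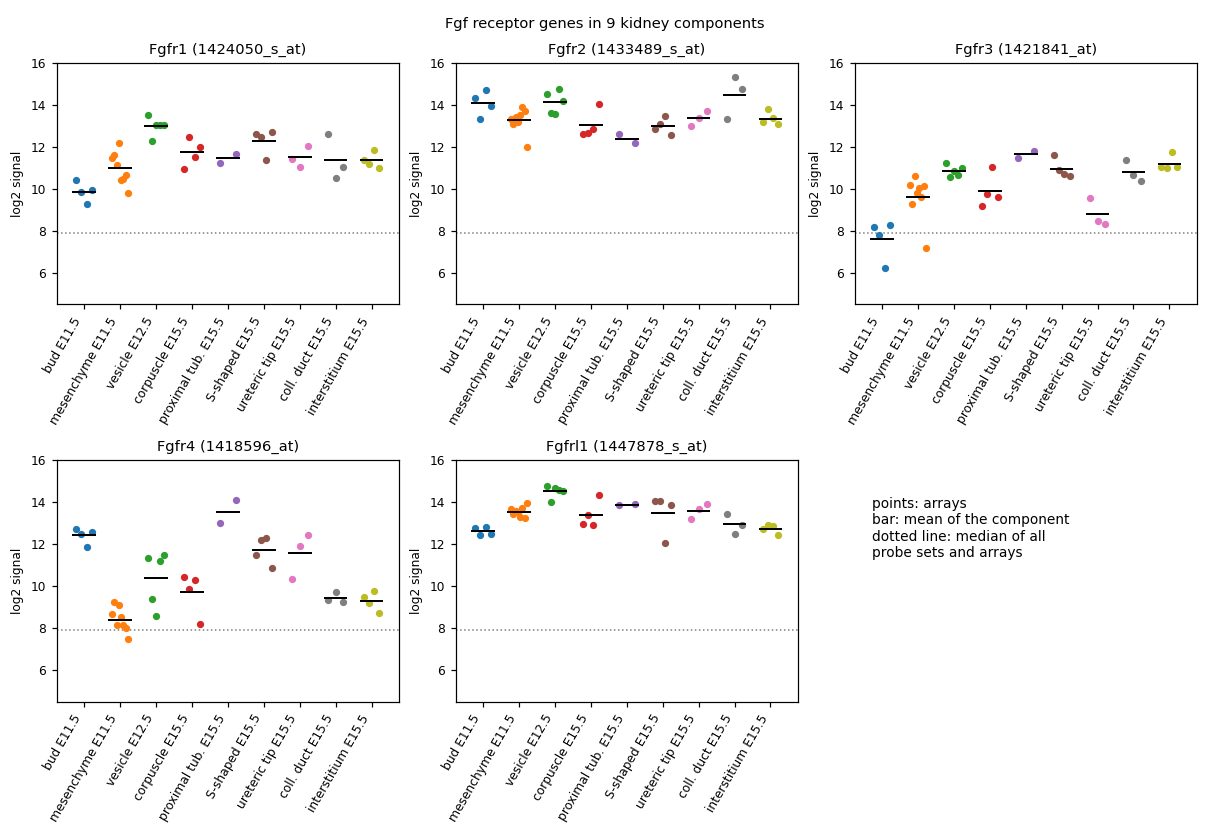
Log2 signal of the 5 receptor genes in each array (points) with component means (bars), by component; the dotted line is the pooled median of 7.89. Fgfr4 is high in the bud and proximal tubule and low in the mesenchyme, Fgfr3 is low in the bud and ureteric tip, and Fgfr1 and Fgfrl1 are highest in the renal vesicle.

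In 5 comparisons no member was called. With limma, renal corpuscle against S-shaped body had 0 calls (0.579% of all genes) and 1 gene at an unadjusted p under 0.05, proximal tubule against S-shaped body 0 (9.91%) and 1, and ureteric tip against collecting duct 0 (0.356%) and 3. S-shaped body against the other E15.5 components had 0 (1.46%) and 2, and renal corpuscle against the others 0 (5.4%) and 2. Fgfr4 was 2.01 lower in corpuscle than in S-shaped body (adjusted p = 0.0837) and 1.84 higher in proximal tubule than in S-shaped body (0.082), without overlap in either. Without S-shaped body 3 and renal corpuscle 4, the proximal tubule difference was 2.03 (0.0425, the lowest over its alternatives, the highest being 0.466).

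**Figure D4:**
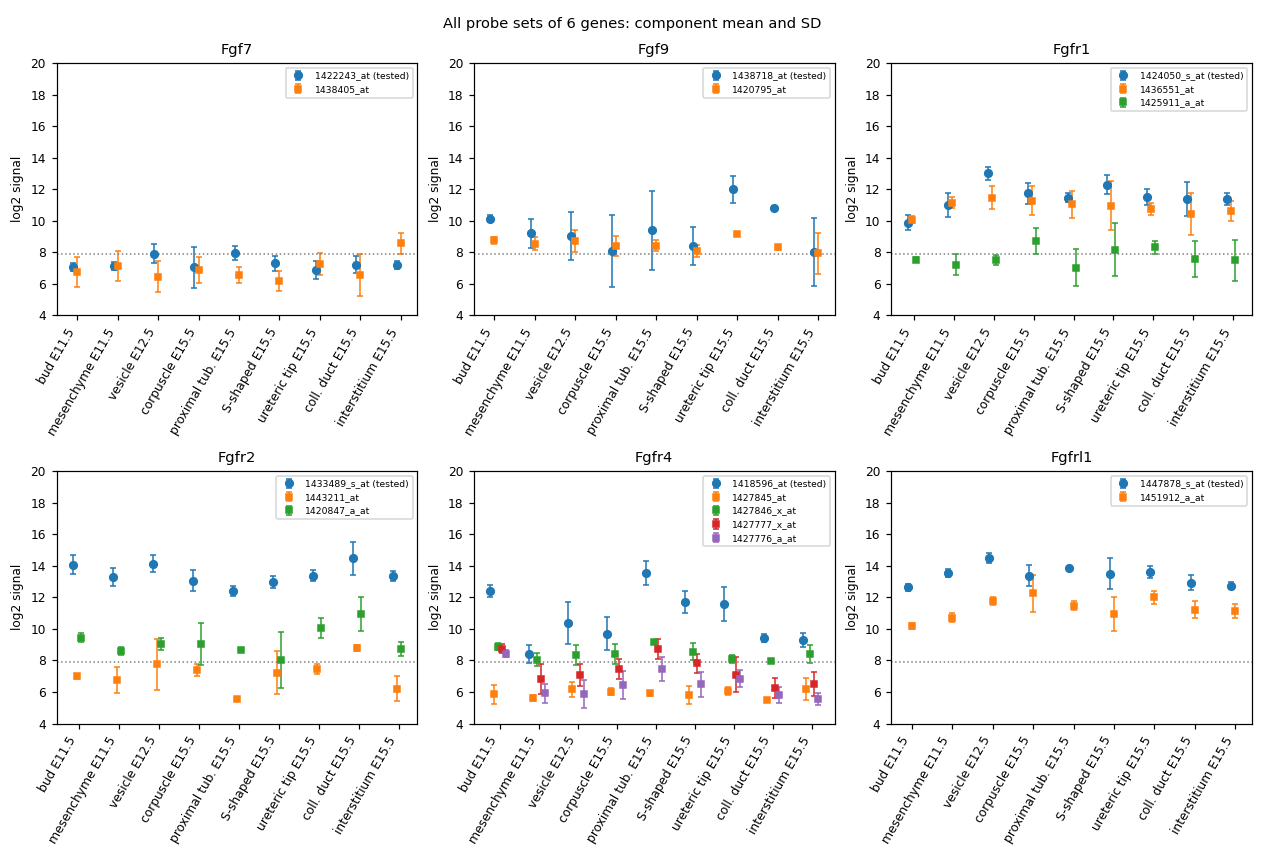
Component mean and SD of log2 signal for every probe set of 6 genes, with the probe set used for the gene as a circle and the others as squares. Fgf7 is highest in the interstitium for 1438405_at (8.57) but not for 1422243_at (7.19, proximal tubule 7.98). Fgfr1 is highest in the vesicle for 1424050_s_at (13, mesenchyme 10.99). For 1436551_at the vesicle also has the highest mean, but by little (11.47, mesenchyme 11.16).

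The rest of the pathway was read from 4 lists. Of 17 other Fgf genes 14 were tested, and 6 were called at least once in the 14 comparisons, where 42.5% of all genes were. Fgf15, a secreted Fgf, rose in renal vesicle against mesenchyme by 4.17 (SE 0.66, adjusted p = 5.21e-05), at 8.73 to 11.6 in the vesicle and 5.45 to 7.47 in the mesenchyme. Fgf13, an intracellular Fgf homologous factor that is not secreted, rose in the interstitium against the other E15.5 components by 4.06 (adjusted p = 9.29e-06). Fgf1 rose in proximal tubule against S-shaped body by 3.41 (0.000789), and Fgf12, another intracellular member, rose in bud against mesenchyme by 2.97 (3.15e-05). Fgf3 and Fgf4 were not called in any comparison, with log2 differences of -0.99 to 1.12 and -0.92 to 0.59. In vesicle against mesenchyme 1 of the 14 was called higher and 2 lower (3.87% and 7.98% of all genes), with a median of 0.36, where all genes had -0.06.

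Of 9 co-receptors and adaptors tested (10 listed), 5 were called at least once (42.5% of all genes). Klb, the beta-klotho co-receptor, read 8.21 to 11.15 in the proximal tubule and 5.65 to 7.15 in the S-shaped body, and rose by 3.36 (adjusted p = 0.00147). Kl, klotho, rose in proximal tubule against the other E15.5 components by 3.14 (0.0209), with overlapping ranges. Flrt3, a membrane protein that binds Fgf receptors, fell in proximal tubule against S-shaped body by 3.09 (0.0195), and the adaptor Gab1 fell in vesicle against mesenchyme by 2.52 (6.51e-06). The adaptors Frs3 and Grb2 were not called in any comparison.

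Of 11 feedback and target genes tested (12 listed), 7 were called at least once (42.5% of all genes); changes of this list in these samples were known before it was written. Il17rd, a membrane inhibitor of Fgf signalling, fell in interstitium against mesenchyme by 3.65 (adjusted p = 0.000459), and Spred2, an inhibitor of Ras signalling, by 2.86 (0.000285), and the list had 3 members called lower and 0 higher there (6.82% and 4.67% of all genes), with a median of -1.23 against -0.11 over all genes. The immediate early gene Fos fell in vesicle against mesenchyme by 4.20 (0.0168), and Egr1, another, fell in proximal tubule against the other E15.5 components by 3.70 (0.0297), both with overlapping ranges. In bud against mesenchyme 2 members were called higher, as were 4.08% of all genes. Spry2 and Spry4, which restrain receptor tyrosine kinase signalling, were not called in any comparison, with differences of -1.14 to 1.29 and -0.77 to 0.8.

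Of 17 genes of heparan sulfate synthesis and carriers tested (18 listed), 11 were called at least once (42.5% of all genes). The sulfotransferase gene Hs3st3b1 rose in bud against mesenchyme by 4.39 (adjusted p = 2.08e-06), and Sulf1, which removes sulfate groups outside the cell, fell by 4.05 (1.85e-05), without overlap for either. Gpc4, a glypican, rose in S-shaped body against vesicle by 3.48 (8.94e-08), and Sdc4, a syndecan, fell in interstitium against the other E15.5 components by 2.08 (0.0019). Ext2 and Ndst2, which build and modify the chain, were not called in any comparison.

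Over the 37 arrays, which share component and processing, the genes most like Fgf8 were Nppc (r = 0.77), Rnaseh2c (0.76) and Fgf15 (0.76). Fgf9 was closest to Prdm16 (0.78), Mcoln3 (0.71) and Hk1 (0.71), and Fgfr1 to Fabp5 (0.8), Dll1 (0.79) and Clec18a (0.77). Fgfr2 was closest to Slc35g1 (0.64), Sbspon (0.63) and Tgfbr1 (0.63), Fgfr3 to Nenf (0.73), Notch2 (0.72) and Tgm2 (0.71), Fgfr4 to Syngr2 (0.77), Myo5b (0.76) and Hs6st1 (0.75), and Fgfrl1 to Camk2b (0.78), Pus7 (0.76) and Fgf15 (0.76). These values are descriptions. Of the 45 pairs among the 10 genes, Fgf8 with Fgfr1 had the highest r (0.73) and Fgf9 with Fgfr3 the lowest (-0.4).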

How the data were processed

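RNA of 37 samples was hybridized to 1 Affymetrix array each. Per the submitters' processing notes, the deposited values are signal intensity from the GCOS software, whose version is not given. Trimmed means (2%) equalled 1500 in all arrays: the authors' intensity values are linear and globally scaled. Detection calls were not used here. After adding 34.62 (the 20th percentile), values were converted to log2, and arrays were quantile normalized. Fold changes of dim genes are therefore understated. Probe sets above the pooled median (7.89) in at least 2 arrays were kept, and of each gene's probe sets the one with the highest mean was used, leaving 15709 genes. Gene symbols came from the platform annotation, updated through RefSeq.

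All arrays entered a single limma fit (version 3.58.1, R 4.3.3, 1 mean for each component, moderated variances, intensity trend, 28 residual degrees of freedom), which was checked on simulated data. P-values were adjusted over all genes by Benjamini and Hochberg. There were 8 pairs, and 6 comparisons of an E15.5 component with the unweighted mean of the other 5. All probe sets were also fitted. Precision is limited by 2 to 8 arrays per component. Replicates are numbered in accession order.

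The 10 genes, the lists and the rules were chosen with earlier results of these data known. Named list genes are up to 4 with the largest called changes and up to 2 never called, these taken in list order after their values were seen; similar genes are the 3 with the highest Pearson correlation. Component marker lists were nephron progenitor, ureteric epithelium, renal vesicle, podocyte, proximal tubule, collecting duct, interstitium, endothelial, macrophage and erythroid. Alternatives varied the offset, scaling, filter, probe set choice, array weights, samples fitted, title date code and number, mesenchyme method and single arrays.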

Additional observations from a re-analysis of the deposited data

Results flagged for a closer look

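Of 60 sets of 4 to 8 arrays of a component (10 genes in 6 components), 8 held 1 array whose gap to the nearest other was large for the range of the set (Dixon's criterion, which chance meets in about 1 in 20 sets). Metanephric mesenchyme replicate 8 stood apart for 3 genes. It read 11.26 for Fgf9 (others 8.49 to 9.53), 12.02 for Fgfr2 (others 13.11 to 13.93) and 7.21 for Fgfr3 (others 9.31 to 10.62). Renal corpuscle replicate 4 read 10.1 for Fgf8 (others 5.31 to 5.78), and S-shaped body replicate 3 read 12.04 for Fgfrl1 (others 13.86 to 14.05). These are the arrays whose podocyte and vesicle marker levels went against their labels. S-shaped body replicate 2 read 6.56 for Fgf7 (others 7.44 to 7.61), renal vesicle replicate 2 read 13.99 for Fgfrl1 (others 14.55 to 14.76), and medullary interstitium replicate 3 read 11.76 for Fgfr3 (others 11 to 11.06). The causes were not tested.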

How the results depend on the processing

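The counts of called members (of 10) moved as follows. Without S-shaped body 3 and renal corpuscle 4 (arrays chosen for their marker levels) they were 2 for collecting duct against the other E15.5 components, 2 for ureteric tip against the others, 1 each for proximal tubule against S-shaped body, corpuscle against S-shaped body, corpuscle against the others and S-shaped body against the others, and 0 for S-shaped body against vesicle. With array weights they were 2 (duct against others), 0 (S-shaped body against vesicle), 5 (bud against mesenchyme), 3 (tip against duct), 3 (tip against others) and 4 (tip against bud). With a filter in 4 arrays the tip against others had 2. Median scaling gave 0 (duct against others), 2 (proximal tubule against others), 1 (corpuscle against S-shaped body), 2 (S-shaped body against vesicle) and 2 (tip against bud). No filter gave 0 for S-shaped body against vesicle and tip against bud. The larger offset gave 2 (duct against others), 1 (corpuscle against others) and 2 (tip against others). Mesenchyme titled as laser capture gave 0 for interstitium and for vesicle against mesenchyme, and mesenchyme titled as dissected or collagenase-treated gave 1 for bud against mesenchyme. With only the samples compared there were 0 (duct against others), 0 (S-shaped body against vesicle) and 3 (tip against bud). The probe set of largest variance gave 0 (duct against others), 2 each for interstitium, proximal tubule and tip against others, 0 (S-shaped body against vesicle) and 2 (tip against bud), and leaving out suffixes _x_at and _s_at gave 0 for S-shaped body against vesicle. The title date code as a fixed term (12 of 14 comparisons could be fitted, 8 residual degrees of freedom, no F-test) gave 0 for interstitium against mesenchyme and against others, proximal tubule against others, bud against mesenchyme, tip against others and tip against bud. As a random block (correlation 0.06) it gave 2 (duct against others), 0 (S-shaped body against vesicle) and 2 (tip against others).

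Arrays of different components with the same title number showed no shared deviation: over 105 such pairs the correlation of deviations was -0.23 to 0.22 (median 0.01). This cannot tell whether samples came from the same kidneys. The title number as a replicate block gave 2 (duct against others), 1 (corpuscle against others), 2 (S-shaped body against vesicle) and 0 (tip against bud).

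Leaving out 1 array at a time gave 0 to 0 for S-shaped body against others, proximal tubule or corpuscle against S-shaped body and tip against duct. It gave 0 to 2 for S-shaped body against vesicle and for duct, interstitium and tip against others, 0 to 1 for interstitium against mesenchyme and corpuscle against others, 1 to 2 for proximal tubule against others, 3 to 4 for vesicle against mesenchyme, 2 to 3 for bud against mesenchyme, 0 to 0 for tip against bud (1 with all arrays) and 6 to 7 for genes varying over the components.

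Single differences turned sign for Fgf7 in interstitium against others (1.88 with the probe set of largest variance, 0.54 with the date code fixed, 0.02 with the replicate block), Fgf8 in tip against bud (-0.04 without tip replicate 3 to 2.15 without tip replicate 2), Fgf9 in tip against bud (-0.43 with the date code fixed), Fgfr2 in tip against bud (0.45 with the largest variance, 0.66 without suffixed probe sets), Fgfrl1 in interstitium against mesenchyme (0.43 under both of these), Fgfrl1 in proximal tubule against others (-0.06 under both) and Fgfrl1 in tip against bud (-0.29 under median scaling). None of these was called in the fit of all arrays; under the alternative, Fgf7 with the probe set of largest variance was (adjusted p = 0.0164, the lowest over its alternatives, the highest being 0.986). Each single-gene difference followed was counted once under each alternative. Under alternatives other than leaving out 1 array, 623 of 717 values kept direction and side of the threshold, and 11 turned sign. With 1 array left out at a time, 635 of 680 values kept both, and 1 turned sign. The median of all genes for tip against bud was -0.88 under median scaling and -0.22 under quantile normalization, and for interstitium against mesenchyme -0.4 and -0.11. The causes were not tested. Fgf20 and Fgf7 were above the pooled median in 3 and 6 of 37 arrays, and Fgf10 in 16.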
